A study of Mus musculus with 12 samples.

Results

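The regions described here are 4607 stretches of the mouse genome that a 1-colour Agilent array covers with probes for long intergenic RNA, out of 34797 names on the array. Each region carries no gene name and is called by its position and strand, as in chr5:105000678-105015290_F, where F is the forward and R the reverse strand. All non-control probes whose name had that form were taken, 16181 probes of 55681, and the brightest probe stood for its region. Positions are those of genome build mm9, as the files give them. The arrays were made from RAW264.7, an established mouse macrophage line, in 4 groups of 3 arrays each. All groups were kept in medium with 0.5% fatty acid-free bovine serum albumin (BSA) for 24 hours. The control group received nothing else, the FABP4 group received 200 nM recombinant FABP4 (also called aP2), the palmitic acid group received 0.2 mM palmitic acid, and the last group received both at the same doses. Nothing in the labels ties the arrays of a group to separate cultures. The p-values therefore reflect only how these arrays spread, and that spread may be technical.

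FABP4 carries fatty acids inside adipocytes and macrophages and is also released from cells, and palmitic acid is a saturated fatty acid that loads macrophages with lipid. Long intergenic RNAs are transcripts that lie between protein-coding genes and have no long open reading frame. Many were first catalogued from chromatin, as stretches with a promoter mark at one end and an elongation mark along the body, and only some have been given a gene name and a function. In macrophages, named members of this class are known to accompany inflammatory activation, survival and lipid loading.

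The 12 arrays lie on 2 slides. All controls were hybridised on slide 1, together with the first FABP4 array. The other FABP4 arrays (2 and 3) and every palmitic acid array were on slide 2. Palmitic acid without FABP4 and the slide therefore cannot be told apart array by array, while palmitic acid with FABP4 can also be read on slide 2 alone. The median raw signal over all non-control spots was 15.5 to 16.3 on slide 1 and 16.9 to 21.7 on slide 2. Macrophage markers were detected for 8 of 8 genes, and adipocyte markers for 0 of 3. Single or paired markers of other cell types were also detected (fibroblast 1 of 3, B cell 1 of 3, T cell 1 of 3, neutrophil 1 of 3, osteoclast 2 of 3). Plin2, which coats lipid droplets and is known to follow fatty acid loading, served as a check of the palmitic acid label. Its scaled intensity was 32249, 33759 and 35850 on the control arrays and 88531, 89495 and 95202 with palmitic acid. With FABP4 it was 35456, 32320 and 34367, against 92074, 88119 and 83614 with both agents.

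Scaled intensity is the background-subtracted signal of a probe divided by the 75th percentile of its array and brought back to signal units with 1 common factor. The signal of a probe depends on its own sequence as well as on the amount of RNA, so levels are compared between arrays for 1 probe, and levels of different probes are only given side by side. A region counted as detected where the scanner software marked its brightest probe well above background in a whole group, on each of its 3 arrays.

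The sequences of the probes carry much of what follows, and 3 sets are shown first, each 5′ to 3′ as the files give them. The first set holds loci that were on the array on both strands and whose forward and reverse probes overlap on the genome. At the loci on chromosomes 11, 16 and X the probes share 47, 24 and 31 of 60 bases. The rest of each probe reads other bases. Capitals mark the bases that both probes of a locus cover.
chr11:35805295-35817263_F, probe at chr11:35810479-35810538: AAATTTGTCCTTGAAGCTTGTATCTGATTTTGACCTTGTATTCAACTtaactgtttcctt
chr11:35805295-35817263_R, probe at chr11:35810466-35810525: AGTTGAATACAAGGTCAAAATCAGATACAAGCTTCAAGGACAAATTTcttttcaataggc
chr16:29942664-29948289_R, probe at chr16:29946617-29946676: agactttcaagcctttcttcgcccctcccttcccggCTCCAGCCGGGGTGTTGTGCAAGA
chr16:29942664-29948289_F, probe at chr16:29946581-29946640: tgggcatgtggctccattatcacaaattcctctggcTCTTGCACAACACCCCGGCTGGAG
chrX:18744367-18853992_F, probe at chrX:18814996-18815055: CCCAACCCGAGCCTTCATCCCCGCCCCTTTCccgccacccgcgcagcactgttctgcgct
chrX:18744367-18853992_R, probe at chrX:18814967-18815026: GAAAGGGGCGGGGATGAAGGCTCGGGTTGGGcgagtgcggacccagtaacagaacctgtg

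The second set holds the tested probes of regions that passed the test in both palmitic acid comparisons and that the results turn on. Of these, the first 3 were higher and the last 2 lower with palmitic acid. No part is in capitals.
chr5:105000678-105015290_F, neighbour Thoc2l: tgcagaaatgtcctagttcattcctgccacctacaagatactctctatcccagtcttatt
chr15:79764481-79809909_R, neighbour Cbx7: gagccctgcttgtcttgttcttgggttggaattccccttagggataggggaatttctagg
chr1:162933979-162944379_F, antisense to Zbtb37: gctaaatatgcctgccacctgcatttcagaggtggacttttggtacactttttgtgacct
chr5:137395007-137412976_F, neighbour Ift22: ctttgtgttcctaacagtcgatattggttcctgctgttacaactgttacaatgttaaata
chr14:115443612-115445950_F, over Mir17hg: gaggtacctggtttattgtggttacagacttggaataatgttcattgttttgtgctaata

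The third set holds probes that contain a TG run, an unbroken stretch of at least 10 bases in which T and G alternate, because most of these probes read higher with palmitic acid at otherwise unrelated loci. Capitals mark the run. The first 5 were called higher with palmitic acid without FABP4 and the last was not.
chr6:92040526-92041319_F: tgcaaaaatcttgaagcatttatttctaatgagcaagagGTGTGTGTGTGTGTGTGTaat
chr5:52461266-52541416_R: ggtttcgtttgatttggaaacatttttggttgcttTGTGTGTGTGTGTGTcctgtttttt
chr1:182686731-182709331_F: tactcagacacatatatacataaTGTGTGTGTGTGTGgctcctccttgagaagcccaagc
chrX:120963050-120963598_F: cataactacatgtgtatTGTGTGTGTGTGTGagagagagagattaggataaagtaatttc
chr17:71242333-71273533_F: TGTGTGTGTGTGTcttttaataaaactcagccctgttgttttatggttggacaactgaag
chr10:66559716-66647841_F: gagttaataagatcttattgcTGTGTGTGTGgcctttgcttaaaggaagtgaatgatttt

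Signal was detected for 2287 of the 4607 regions (49.6%), close to the share of the 30190 other names on the array (50.6%). Regions carried up to 10 probes, with a median of 3, and a region needed only its brightest probe to be detected. Probe by probe the shares were further apart, with 26.6% of region probes and 49.6% of other probes detected. All 12 arrays were well above background for 1911 regions, and none was for 1322. The scaled intensity of the detected regions had a median of 133 and ranged from 21.6 to 149067, beside a median of 721 for other detected names. It was above 1000 for 367 of the 2287 detected regions and for 6797 of the 15285 other detected names. Just inside the rule lay chr11:69195483-69195857_R, on which the control arrays read 44.2, 29.3 and 27.7. Just outside it lay chr5:149931140-149995639_R, with 67.5, 30.6 and 130 on the same arrays.

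**Figure D1:**
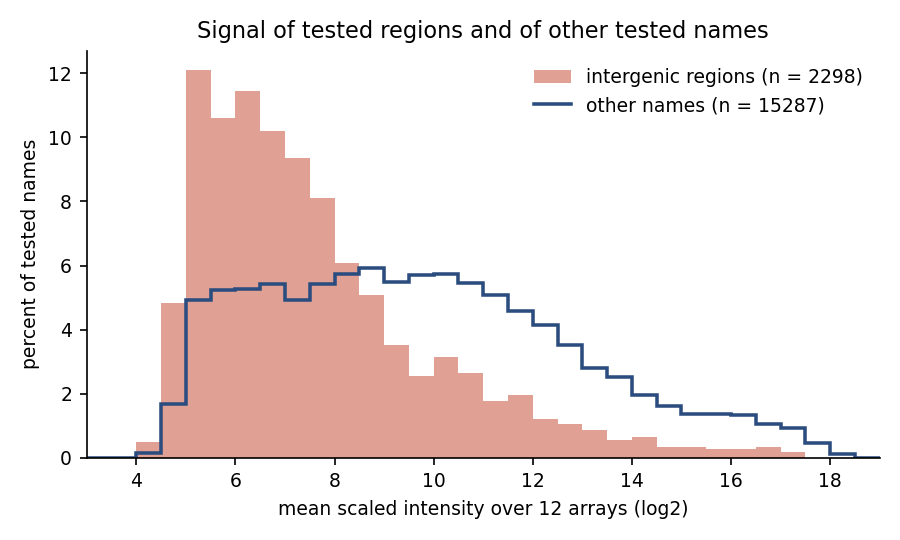
Distribution of the mean scaled intensity over 12 arrays (x axis, log2) as a percent of tested names (y axis), for 2298 regions (filled) and 15287 other names (line). Regions pile up at the dim end, while the other names spread over the whole range.

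Detection followed the design of the probes and the position of the region. Regions with 1 probe were detected in 29.9% of cases and those with 6 to 10 probes in 76.3%. Regions of up to 1 kb were detected in 37.8% of cases and those over 50 kb in 58.9%. By base composition, 16.2% of region probes with up to 35% G and C were detected, and 63.6% of those over 55%. By position from the 5′ end of the region, cut into 5 equal parts, 30.8% of probes were detected in part 1 and 23.2% in part 4. The motif AATAAA, the usual signal for cleavage and polyadenylation, was searched on the probe strand only. It occurred in 3.92% of region probes and in 12.6% of other probes, and the share of region probes detected was 25.4% with it and 26.6% without it. By chromosome, the share of regions detected ran from 34.8% on X to 62.5% on 11. Regions that contained a probe of a named gene were detected in 67.6% of cases where any probe of that gene name was detected. Where none was, they were detected in 43.0%.

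The brightest regions gave signal in every group. The probe of chr14:78924115-78938125_F, which lies 10842 bases from Akap11 and consists of G and C for 83.3% of its bases, read 147996, 167720 and 145678 on the control arrays. The probe of chr11:22681800-22707775_R, 27165 bases from B3gnt2, read 153413, 66759 and 152952 on the control arrays and 145635 to 164650 on the arrays with palmitic acid. Control array 2 was thus the only low value for that probe. The region chr17:39982023-39983277_F read 131035 to 154634 over all arrays. Its nearest named probe belongs to Pgk2, 361088 bases away, and in the reference order of build GRCm38 the ribosomal RNA repeat Rn18s-rs5 lies 4 genes from Pgk2. None of these 3 regions passed the test in any comparison.

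Of the loci, 1067 were on the array on both strands. Both strands were detected at 400 of them (37.5%), 1 strand at 453 (42.5%) and neither at 214 (20.1%). Over all regions 49.5% of 2318 forward and 49.8% of 2289 reverse regions were detected. At 242 of the loci the brightest forward and reverse probes overlapped by at least 1 base, and there both strands were detected at 60, neither at 75 and 1 strand at the rest. The locus chr11:35805295-35817263, whose overlapping probes are printed above, read 22845, 24691 and 23765 on the forward strand of the control arrays. Its reverse probe, which shares 47 of the 60 bases, read 5.65, 9.60 and 11.2 on the same arrays and was not detected. At chr16:29942664-29948289 the reverse probe was detected, with 8914, 9262 and 7997 on the control arrays, and the forward probe was not, with 6.31, 16.6 and 10.2. At chrX:18744367-18853992 both were detected, with 76669, 80098 and 76412 on the forward and 73.6, 92.3 and 47.1 on the reverse strand. Overlapping probes of 1 locus thus gave signal on 1 strand at most of the loci where any was detected.

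**Figure D2:**
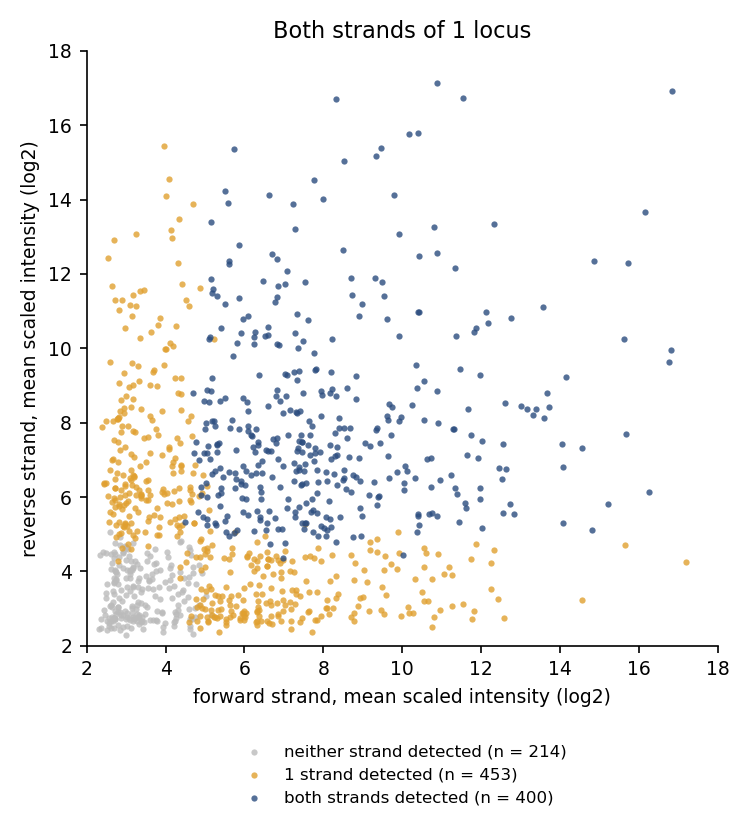
Mean scaled intensity over 12 arrays (log2) of the forward (x axis) and reverse (y axis) region at 1067 loci present on both strands. Points for the 453 loci with 1 detected strand lie along both axes, and the 400 loci with both strands detected fill the middle with no common line.

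A few regions cover named long intergenic RNAs. Malat1 and Neat1 are nuclear RNAs of splicing speckles and paraspeckles and lie next to each other on chromosome 19, both transcribed from the reverse strand. The region chr19:5801802-5802597_R, inside the Malat1 span, read 136851, 120138 and 129510 on the control arrays and 96781, 94381 and 105162 with FABP4. The groups did not overlap, and the difference of −0.38 ± 0.07 (log2 ± SE) did not pass the test (adjusted p = 0.293). A second reverse region of Malat1, chr19:5798135-5800557_R, read 15007, 13832 and 15660 on the control arrays and 13649, 12322 and 14554 with FABP4, which overlap. The probe that bears the name of the gene itself (listed as NEAT2) differed by −0.14 ± 0.08 with FABP4 (adjusted p = 0.759). For Tug1, which binds chromatin regulators, the reverse regions had mean scaled intensities of 386, 212 and 37.8 and the forward region 296. The region chrX:100676170-100710920_R, which overlaps the spans of Xist and of its antisense partner Tsix, was detected at a mean of 543, and its forward strand was not detected. The reverse strand of the lincRNA-p21 locus, near the cell cycle inhibitor Cdkn1a, had 2 detected regions. One of them, chr17:29192453-29216073_R, 11913 bases from the Cdkn1a probe, read 44.8, 48.2 and 40.6 on the control arrays and 64.5, 58.4 and 68.9 with palmitic acid. It rose by 0.52 ± 0.13 (adjusted p = 0.0361), and by 0.33 ± 0.13 with FABP4, which did not pass (adjusted p = 0.196). The other, chr17:29183003-29217681_R, read 196, 200.0 and 185 on the control arrays and 195, 196 and 211 with palmitic acid, which overlap (0.05 ± 0.08, adjusted p = 0.727), and differed by 0.04 ± 0.08 with FABP4 (adjusted p = 0.832).

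In the fit without a slide term, more regions were called for palmitic acid without FABP4 than in any other comparison. Of 2298 regions tested, 159 rose (6.92%) and 43 fell (1.87%), at an adjusted p under 0.05 from a limma fit over all 17585 tested names. Over all those names 4.87% were called higher and 3.73% lower. Among the 15287 other names 4.56% rose and 4.01% fell, so the regions were more one-sided. The median difference was 0.14 over regions and 0.00 over all tested names, and 70.3% of regions were above 0 beside 50.1% of all names. With slide as a fixed term these medians changed order, to −0.04 over regions and 0.04 over all names, with 3 regions called higher and 3 lower. The palmitic acid and control arrays did not overlap at 855 of the 2298 tested regions (37.2%), among them all 202 called ones. The calls come from the same arrays, so this adds no support to them. The share over all names is not given here. Changes were mostly small, with 95 of the 202 under 0.5 on the log2 scale and 21 over 1. The shift of the regions was greatest where signal was low, with medians of 0.22, 0.14, 0.09 and 0.05 from the dimmest to the brightest quartile of tested names. Over the other names these medians were 0.09, −0.02, −0.04 and −0.01. For FABP4 without palmitic acid the medians of regions were 0.10, 0.04, −0.01 and −0.03.

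The slide moves with this comparison. In the FABP4 group, which received no palmitic acid and spans both slides, the median of arrays 2 and 3 (slide 2) minus array 1 (slide 1) was 0.19 over regions and −0.07 over other names. From the dimmest to the brightest quartile it was 0.30, 0.16, 0.12 and 0.04 over regions, the same order as for palmitic acid. The same difference had a median of 0.31 over the 159 regions that rose, of which 89.9% were above 0. It had a median of −0.12 over the 43 that fell, of which 18.6% were above 0. With slide as a fixed term 6 regions were called, 2 of them among the 202, and with slide as a random term 14, all among the 202. For palmitic acid with FABP4 the same fits called 35 and 39 regions. Which comparison had more called regions thus depended on the slide term. Single arrays also moved the count: it was 463 without FABP4 array 1, 67 without palmitic acid array 2, 75 without control array 3, 86 without control array 1, 101 without palmitic acid array 3 and 123 without palmitic acid array 1. With no scaling between arrays 641 regions were called higher and 5 lower. The part of the slide in these changes was not tested.

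**Figure D3:**
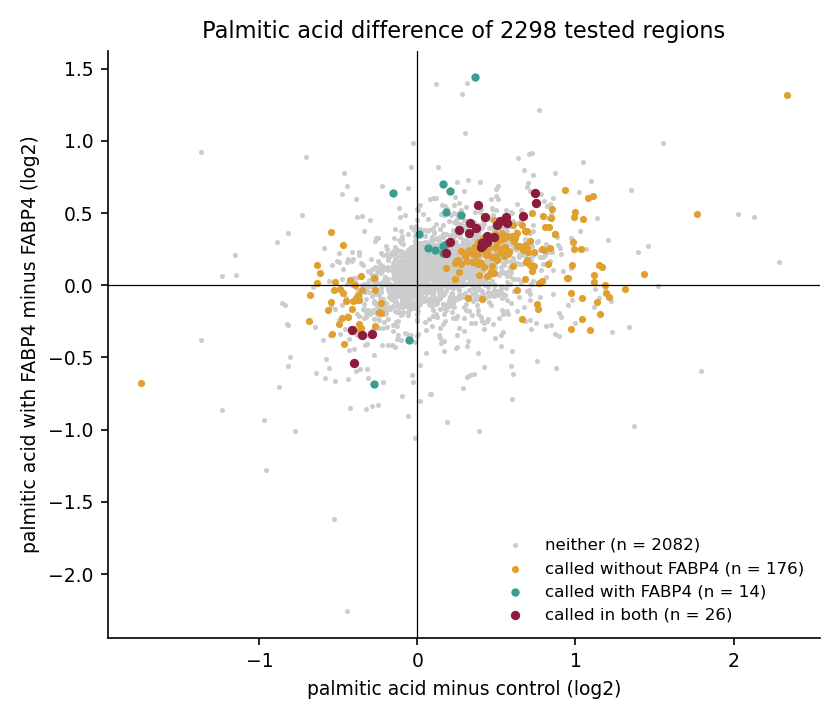
Palmitic acid difference (log2) without FABP4 (x axis) and with FABP4 (y axis) for 2298 tested regions, coloured by the comparison in which they were called. The 26 regions called in both are above 0 on both axes or below 0 on both, and many regions called only without FABP4 lie near 0 on the y axis.

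In the fit without a slide term, fewer regions were called for palmitic acid in the presence of FABP4. Here 34 rose (1.48%) and 6 fell (0.261%), where 2.87% of all names were called higher and 0.944% lower. Among the other names 3.07% rose and 1.05% fell. The median difference was 0.12 over regions and 0.05 over all tested names, and 74.2% of regions were above 0 beside 63.3% of all names. With slide as a fixed term, and on slide 2 alone, both medians were 0.06. Scaling each array by the probes detected on all arrays gave 23 regions higher and 18 lower in place of 34 and 6, quantile normalization 29 and 10, and no scaling 2 and 3. Of the 40, 30 differed by under 0.5 on the log2 scale and 1 by over 1. On slide 2 alone, with 2 FABP4 arrays against 3 with both agents, 12 regions were called, 10 of them among the 40. The count was 18 without FABP4 array 2, 25 without control array 3, and 21, 19 and 21 without arrays 1, 2 and 3 of the group with both agents.

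In both palmitic acid comparisons 26 regions were called, all in the same direction and 22 of them higher. They were 12.9% of the regions called without FABP4 and 26 of the 40 called with it. The comparisons share no arrays, but both come from the same fit with a common estimate of spread for each probe. The calls are therefore not independent. How many of all tested names were called in both is not given here.

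The clearest riser was chr5:105000678-105015290_F, 19732 bases from the probe of Thoc2l (listed as D930016D06Rik), a relative of a subunit of the mRNA export complex. It read 118, 134 and 129 on the control arrays and 219, 217 and 206 with palmitic acid. With FABP4 it read 137, 167 and 145, and with both agents 213, 234 and 216. Neither pair of groups overlapped, and it rose by 0.75 ± 0.08 without FABP4 (adjusted p = 0.00103) and by 0.57 ± 0.08 with it (adjusted p = 0.00486). Within slide 2 the second difference was 0.50 ± 0.08 (adjusted p = 0.0343).

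The region chr15:79764481-79809909_R lies 15817 bases from the probe of Cbx7, a chromobox protein of Polycomb complexes. Its probe read 1057, 1083 and 1041 on the control arrays and 1453, 1476 and 1586 with palmitic acid. With FABP4 it read 1072, 1156 and 1147, against 1568, 1506 and 1425 with both. All 6 arrays with palmitic acid were above all 6 without it. The rise was 0.50 ± 0.06 (adjusted p = 0.00121) and 0.41 ± 0.06 (adjusted p = 0.00383), and 0.38 ± 0.06 on slide 2 alone (adjusted p = 0.0454). The calls of this region and of the one near Thoc2l held in all 12 fits without 1 array, in both comparisons.

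The region chr1:162933979-162944379_F runs antisense to Zbtb37, a zinc finger gene whose probe lies inside it. It read 320, 345 and 307 on the control arrays and 471, 491 and 470 with palmitic acid. It rose by 0.56 ± 0.08 (adjusted p = 0.00355) and, with FABP4, by 0.47 ± 0.08 (adjusted p = 0.00987). Within slide 2 the rise was 0.40 ± 0.07 (adjusted p = 0.0462). The region chr11:97457180-97487074_R, antisense to 2410003L11Rik, read 2216, 2557 and 2440 on the control arrays and 3443, 3401 and 3493 with palmitic acid. It rose by 0.52 ± 0.08 and 0.45 ± 0.08 (adjusted p = 0.00473 and 0.0120).

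The region chr10:96103732-96103867_F lies 18315 bases from Btg1, an antiproliferative gene. It read 184, 165 and 200 on the control arrays, 233, 228 and 253 with palmitic acid, 198, 165 and 167 with FABP4, and 275, 246 and 256 with both. The rise was 0.38 ± 0.09 without FABP4 (adjusted p = 0.0317) and 0.56 ± 0.09 with it (adjusted p = 0.0103). It was, on slide 2 alone, 0.64 ± 0.07 (adjusted p = 0.0108), the largest of the slide 2 values given here for regions called in both comparisons.

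Some risers lie at the ends of genes with known roles. One of the 10 probes of chr10:62347876-62374346_F lies across the start of Tet1, an enzyme that oxidises methylated cytosine, on the opposite strand, with its centre 8 bases after the start. That probe was not detected. The probe named Tet1 rose by 0.42 ± 0.11 without FABP4 (adjusted p = 0.0423), and with it the difference was 0.15 ± 0.11 (adjusted p = 0.469). The tested probe of the region rose by 0.67 ± 0.11 without FABP4 (adjusted p = 0.00612) and by 0.48 ± 0.11 with it (adjusted p = 0.0369), a call that held in 2 of the 12 fits without 1 array. The region chr12:76744947-76778372_F was tested on a probe whose centre lies 25 bases before the start of Wdr89, on the opposite strand, and 162 bases before the start of Gm34717, on the same strand. It rose by 0.32 ± 0.09 and 0.36 ± 0.09 (adjusted p = 0.0445 and 0.0487). These calls were lost under most alternatives: they held in 3 of 12 other settings without FABP4 and 3 of 13 with it, and in 4 and 1 of the 12 fits that left out 1 array. The gene Wdr89 itself rose by 0.35 ± 0.05 without FABP4 (adjusted p = 0.00566), and with it the difference was 0.21 ± 0.05 (adjusted p = 0.0639). Starts were taken from the RefSeq promoter table of build GRCm38 by matching sequence.

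The region chr3:96074625-96086375_F ends 464 bases from the probe of Fcgr1, the high-affinity receptor for IgG, in a cluster of histone genes. It read 210, 221 and 202 on the control arrays and 242, 254 and 264 with palmitic acid, and rose by 0.26 ± 0.07 (adjusted p = 0.0370). With FABP4 it rose by 0.38 ± 0.07 (adjusted p = 0.0126). The histone gene H2ac18, whose probe lies 24.6 kb away, rose by 0.28 ± 0.08 and 0.44 ± 0.08 (adjusted p = 0.0455 and 0.0123). The histone gene H2ac21, whose probe lies 50.4 kb away, went the other way without FABP4 (−0.53 ± 0.14, adjusted p = 0.0449).

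Of the 4 regions called lower in both comparisons, chr5:137395007-137412976_F had the smallest p. It lies 6181 bases from the probe of Ift22 (listed as Rabl5), a part of the intraflagellar transport machinery of cilia. It read 749, 767 and 762 on the control arrays and 570, 557 and 580 with palmitic acid. With FABP4 it read 821, 762 and 815, and with both 631, 654 and 646. It fell by 0.42 ± 0.04 without FABP4 (adjusted p = 0.00103) and by 0.31 ± 0.04 with it (adjusted p = 0.00506). On slide 2 alone the difference was −0.29 ± 0.05 and did not pass (adjusted p = 0.0527).

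The region chr14:115443612-115445950_F covers Mir17hg, the host transcript of the miR-17-92 cluster of microRNAs that promote proliferation, on the same strand. It read 226, 273 and 235 on the control arrays and 177, 176 and 202 with palmitic acid. With FABP4 it read 301, 252 and 249, and with both 173, 174 and 204. It fell by 0.40 ± 0.11 (adjusted p = 0.0438) and by 0.54 ± 0.11 (adjusted p = 0.0225), calls that held in 2 and 8 of the 12 fits without 1 array. The probe named Mir17hg itself, a different probe, read 250, 259 and 240 on the control arrays and 180, 165 and 201 with palmitic acid. It fell by 0.46 ± 0.12 and 0.56 ± 0.12 (adjusted p = 0.0376 and 0.0279). The region differed on slide 2 alone by −0.45 ± 0.10 (adjusted p = 0.0757).

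The other 2 regions that fell in both were chr17:95149413-95174473_F, which covers 2700099C18Rik on the same strand, by 0.35 ± 0.06 and 0.34 ± 0.06 (adjusted p = 0.0104 and 0.0187), and chr8:119090566-119097735_R, 592 bases from the chromodomain gene Cdyl2, by 0.29 ± 0.07 and 0.34 ± 0.07 (adjusted p = 0.0369 and 0.0324).

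**Figure D4:**
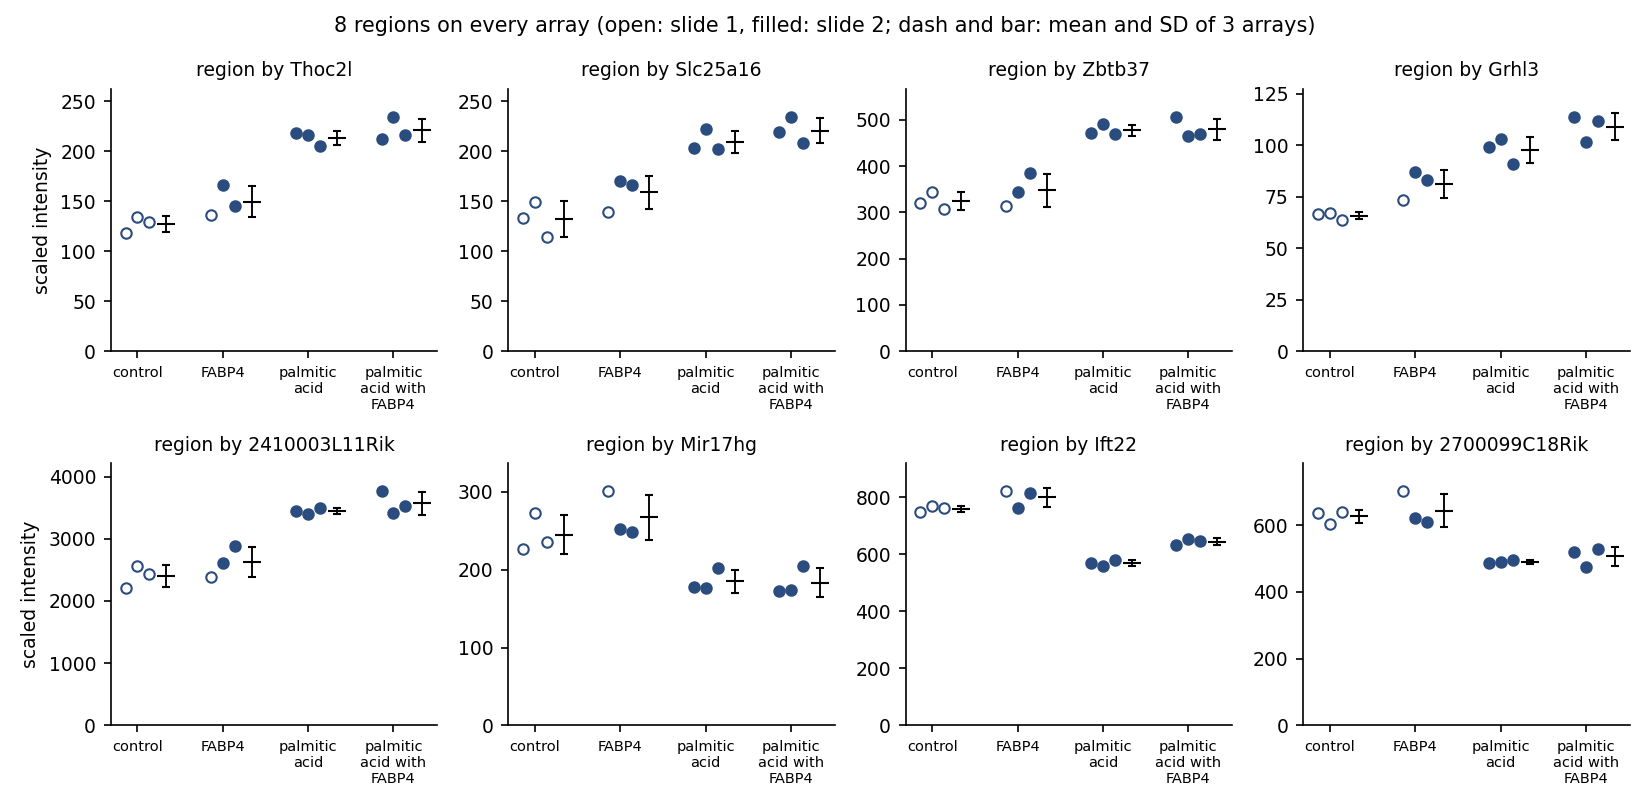
Scaled intensity (y axis, from 0) of 8 regions called in both palmitic acid comparisons on every array, by group, with slide 1 as open and slide 2 as filled circles and the mean and SD of 3 arrays beside them. The first 5 are higher and the last 3 lower on the arrays with palmitic acid, and FABP4 array 1 shows how far slide 1 lies from slide 2 in a group without palmitic acid.

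The regions with the largest fitted rises without FABP4 were dim on the control arrays. The first by the fit was chr13:28700385-28760363_R, 280463 bases from Sox4, which read 14.4, 15.2 and 12.1 on the control arrays and 237, 43.8 and 32.9 with palmitic acid. The fitted rise was 2.34 ± 0.63 (adjusted p = 0.0472), and palmitic acid array 1 was the high one. Since no control array was well above background, only a bound can be given, and the signal was at least 2.84-fold higher, or at least 1.54-fold without palmitic acid array 1. The call held in 3 of the 12 fits that left out 1 array and in 4 of 11 other settings. That bound sets the mean of the 3 palmitic acid arrays against the lowest signal well above background on each control array, or the signal of the probe itself where that was higher. The region chr9:88437245-88465751_R, inside which lies a probe of the zinc finger gene Zfp949 on the other strand, was at least 1.25-fold higher, with 13.8, 6.6 and 8.1 against 25.4, 36.4 and 31.6. Of the other 6 among the 8 largest rises, chr12:110845020-110850870_R was at least 1.35-fold, chr4:101010948-101032148_F at least 1.74-fold and chr16:3872469-3877048_F at least 1.75-fold higher, and chr15:59130091-59131239_R, 31449 bases from the cholesterol synthesis gene Sqle, was at least 1.60-fold higher (adjusted p = 0.0178). The others, chr7:3338500-3360725_F and chr11:120097758-120098581_F, rose by 1.43 ± 0.32 and 1.21 ± 0.29 (adjusted p = 0.0236 and 0.0312). In the FABP4 group, chr11:120097758-120098581_F read 42.2 on array 1 (slide 1) and 109 and 92.1 on arrays 2 and 3 (slide 2), and with slide as a fixed term its difference was −0.04 (adjusted p = 0.960).

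Falls without FABP4 were fewer. The region chr4:129380903-129390686_R ends 436 bases from Khdrbs1, an RNA-binding protein. It read 1772, 1158 and 1207 on the control arrays and 952, 853 and 981 with palmitic acid, and fell by 0.55 ± 0.14 (adjusted p = 0.0413), a call that held in 2 of the 12 fits without 1 array. The region chr13:108653722-108654406_R, 136648 bases from Zswim6, read 447, 373 and 395 against 275, 259 and 284, and fell by 0.57 ± 0.10 (adjusted p = 0.00854). The region chr4:135896689-135918414_F, 132 bases from the probe of the RNA-binding protein gene Hnrnpr on the same strand, fell by 0.63 ± 0.16 (adjusted p = 0.0388). The region chr1:36012298-36020311_R fell by 0.62 ± 0.10 (adjusted p = 0.00589). The largest fitted fall was that of chrX:11690182-11690581_R, with means of 39.2 over the 3 control arrays and 12.5 over the 3 palmitic acid arrays, which was at least 1.53-fold lower (adjusted p = 0.00701).

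The region chr2:128217275-128217972_R lies 75177 bases from the probe of Morrbid (listed as Gm14005), a long noncoding RNA that is known to control the life span of myeloid cells. It read 617, 563 and 598 on the control arrays, 416, 440 and 410 with palmitic acid, 463, 456 and 492 with FABP4, and 443, 451 and 489 with both. The control arrays were the high ones, and the other 3 groups were close to each other. It fell by 0.49 ± 0.06 without FABP4 (adjusted p = 0.00159), and with FABP4 the difference was −0.03 ± 0.06 (adjusted p = 0.810). FABP4 array 1, the only array of that group on slide 1, was among the low ones.

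The region chr17:66802920-66834745_F, near Rab12, read 28.5, 19.8 and 18.2 with FABP4, where 1 of the 3 arrays was well above background, and 80.4, 79.0 and 32.1 with both. Its fitted rise was 1.44 ± 0.33 (adjusted p = 0.0432), and the call held in 6 of 12 other settings and in 2 of the 12 fits that left out 1 array. The region chr5:108546679-108547344_R, 990 bases from the secretory pathway gene Tmed5 on the same strand, read 42.3, 48.8 and 54.4 with FABP4 and 77.3, 74.9 and 83.8 with both. It rose by 0.70 ± 0.09 (adjusted p = 0.00330), and by 0.61 ± 0.08 on slide 2 alone (adjusted p = 0.0223). Its control arrays read 62.3, 69.4 and 64.2, above the FABP4 arrays, and the rise without FABP4 was 0.16 ± 0.09 and did not pass (adjusted p = 0.303).

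The region chr4:86267450-86277650_F lies 20259 bases from its nearest named probe, that of Haus6, and 25.2 kb from that of Plin2. All 5 of its probes were detected. It read 122, 104 and 109 with FABP4 and 180, 191 and 157 with both, and rose by 0.66 ± 0.13 (adjusted p = 0.0224). The rise on slide 2 alone was 0.72 ± 0.12 (adjusted p = 0.0442). Without FABP4 the control arrays read 129, 111 and 150 and the palmitic acid arrays 140, 137 and 171, which overlap, and the difference was 0.21 ± 0.13 (adjusted p = 0.336). Plin2 itself rose by 1.42 ± 0.06 without FABP4 and 1.37 ± 0.06 with it (adjusted p = 1.6e-06 and 2.4e-06). An array probe without a gene symbol lies inside the region. With palmitic acid in the presence of FABP4 that probe rose by 1.31 ± 0.10 (adjusted p = 0.000136).

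The 9 regions that can be named here among the 10 called in the fit over all arrays, with slide as a fixed term and on slide 2 alone included the regions near Thoc2l, Cbx7, Btg1, Plin2, Tmed5 and 2410003L11Rik, the one antisense to Zbtb37, chr6:92040526-92041319_F with its TG run, and 1 other.

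FABP4 without palmitic acid moved 2 regions, both higher, where 0.0171% of all tested names were called in either direction. At an unadjusted p under 0.05 there were 243 regions in the limma fit (10.6%), beside 7.22% of all tested names. The region chr5:52998788-53010250_R, over 8030423F21Rik on the same strand, read 21.2, 23.2 and 18.2 on the control arrays and 39.8, 48.3 and 45.7 with FABP4 (1.10 ± 0.13, adjusted p = 0.0472). With palmitic acid it read 40.7, 46.9 and 48.3, and with both 40.4, 42.5 and 53.5. The region chr17:84477999-84489215_F, over 4933433H22Rik, read 20.5, 24.9 and 25.4 against 40.2, 55.4 and 53.6 (1.07 ± 0.13, adjusted p = 0.0472). Both were below the background limit on all control arrays, so the signal was at least 1.81-fold and 1.88-fold higher. The control arrays were the only low ones in each, and FABP4 array 1, on slide 1 with them, read 39.8 and 40.2. Each call held in 3 of the 12 fits without 1 array, and neither region was called with each group pair fitted alone or with slide as a random term.

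FABP4 in the presence of palmitic acid moved 0 regions, and 0% of all tested names were called. In the limma fit 128 regions had an unadjusted p under 0.05 (5.57%), a share near that of all tested names (5.87%). The interaction, which asks whether the palmitic acid difference itself differed with FABP4, gave 0 regions as well, where 0% of names were called, and 198 at an unadjusted p under 0.05 (8.62%, beside 6.93% of all names). The difference between 202 and 40 called regions is therefore not a tested difference for any single region. The smallest adjusted p of the interaction was 0.300, for chr17:84477999-84489215_F, and the Morrbid neighbour chr2:128217275-128217972_R had 0.425.

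The tested probe of a called region was not always joined by its other probes. Of the 202 regions called without FABP4, 87 had another detected probe. All other detected probes had the same sign at 68 of them and at least 1 was opposite at 19. Of the 40 called with FABP4, 16 had another detected probe, with the same sign at 13 and an opposite one at 3. Most called regions rose, and 70.3% of all tested regions were above 0 without FABP4 and 74.2% with it. Some agreement in sign would therefore be found for any detected region probes. Regions can overlap on the same strand, as 2104 of the 4607 did, and 7 overlapping pairs of called regions could be named. In 2 of these the overlapping regions moved in opposite directions. At chromosome 1, chr1:137482591-137625604_R read 121, 148 and 133 on the control arrays and 173, 194 and 190 with palmitic acid, and rose by 0.47 ± 0.09 (adjusted p = 0.0148). The region chr1:137503023-137625604_R, which lies within it and has a probe of its own, read 193, 187 and 192 against 129, 163 and 139 and fell by 0.41 ± 0.08 (adjusted p = 0.0135). The opposite strand was tested at 62 of the 202 regions and called at 2, and at 13 of the 40 and called at 0. Of all tested regions 6.92% were called higher and 1.87% lower without FABP4, and 1.48% and 0.261% with it.

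Changes of regions were set against those of the nearest named genes. Over 207 pairs in which the gene probe lay inside the region on the same strand, the Pearson correlation of the palmitic acid differences was 0.21 without FABP4 and 0.24 with it. All pairs share the same arrays. In the other classes of distance and strand it lay between −0.06 and 0.18. A gene called lower within 100 kb was found for 18.6% of the 43 regions that fell without FABP4 and for 9.83% of all tested regions. A gene called higher was found for 5.66% of the 159 regions that rose and for 9.88% of all. With FABP4 a gene called higher was found for 11.8% of the 34 that rose and for 6.57% of all.

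Genes listed as named long noncoding RNAs gave a comparison outside the regions. Of 61 listed genes 49 were on the array and 32 were tested. Without FABP4, 3 fell and 0 rose, where 3.73% of all tested names were called lower, with a median of −0.05 beside 0.00 over all tested names. Snhg5, a small nucleolar RNA host gene, fell by 0.51 ± 0.14 (adjusted p = 0.0453), Mir17hg by 0.46 ± 0.12 (adjusted p = 0.0376) and Ncrna00085 by 0.91 ± 0.22 (adjusted p = 0.0304). The list took Ncrna00085 by its array name, which alone does not show that the transcript is noncoding. With FABP4, Mir17hg fell and 0 rose, where 0.944% of all names were called lower. In the other 3 comparisons 0 were called in the limma fit.

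A property of the probes moved with the palmitic acid difference, and with that of FABP4 without palmitic acid, at unrelated loci. A TG run was present in 19 tested regions, and 18 of them were above 0 without FABP4, with a median of 0.41. Of these 11 were called higher and 0 lower, where regions without a run had a median of 0.14 and 148 higher and 43 lower of 2279. With FABP4, 17 of the 19 were above 0, with a median of 0.22, and 4 were called higher. Of 150 other names with a TG run, 71.3% were called higher and 2 names lower without FABP4 (median 0.29), and 50 and 0 with it (median 0.21). These calls depended on the setting, while the medians stayed above 0 in every setting run. Without FABP4 the number of other names called higher was 55 without the filter on dim probes, 20 with slide as a random term and 0 with slide as a fixed term, and 64 and 68 without control arrays 1 and 3. With FABP4 it was 17 with scaling by the detected probes, 4 with quantile normalization, 2 with the replicate block, 2 on slide 2 alone, and 0 with the groups alone, without the filter or without scaling. Leaving out 1 array gave 22, 1 and 3 for FABP4 arrays 1, 2 and 3, 1, 3 and 1 for those with both agents, 12 for control array 3, and 30 and 33 for palmitic acid arrays 1 and 3. Among the 19 regions the 11 became 7 without control array 1 or 3, without palmitic acid array 3 or without the filter, 3 with slide as a random term and 0 with it as a fixed term. The 4 called with FABP4 became 0 or 1 without control array 3 or any 1 array of the FABP4 group or of the group with both agents, and 1 with quantile normalization, the replicate block or slide as a fixed term. The run was searched on the probe strand only, and 0.173% of all region probes and 0.408% of all other probes hold one. For FABP4 without palmitic acid, 16 of the 19 regions were above 0, with a median of 0.13. So were 135 of the 150 other names, with a median of 0.10, and 0 were called in that comparison.

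The region chr6:92040526-92041319_F, with a run of 18 bases, read 14254, 16763 and 14887 on the control arrays and 20794, 19855 and 21485 with palmitic acid. With FABP4 it read 16435, 16462 and 16896, and with both 21588, 20187 and 21289. It rose by 0.44 ± 0.06 and 0.34 ± 0.06 (adjusted p = 0.00450 and 0.0183). The region chr5:52461266-52541416_R, with a run of 15 bases, read 13454, 14988 and 13709 on the control arrays and 19434, 17476 and 20221 with palmitic acid, and rose by 0.44 ± 0.06 and 0.30 ± 0.06 (adjusted p = 0.00485 and 0.0331). The region chr1:182686731-182709331_F read 4061, 4551 and 4329 against 5949, 5306 and 6028. The region below 0, chr10:66559716-66647841_F with a run of 10 bases, had means of 99.4 ± 7.61 (SD, n = 3) on the control arrays and 89.1 ± 9.64 with palmitic acid, which overlap (−0.16 ± 0.11, adjusted p = 0.384).

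The complementary CA run was present in 6 tested regions, of which 1 was above 0, with a median of −0.18. It was present in 57 other names with a median of −0.28, of which 19 were called lower and 0 higher. With FABP4 those medians were 0.12 and 0.05, and 0 were called. For FABP4 without palmitic acid they were −0.13 and −0.17, and 0 were called. The share of C and T in the tested probe moved with the difference as well. Without FABP4 the median of regions was −0.12 up to 35% C and T, 0.03 from 35 to 45%, 0.10 from 45 to 55%, 0.21 from 55 to 65% and 0.18 above 65%. In the other names the same medians ran from −0.05 to 0.10. For FABP4 without palmitic acid the medians of regions were −0.05, 0.00, 0.02, 0.08 and 0.05 from the lowest to the highest share. The tested probes of regions have a median of 55% C and T and those of other names 50%.

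The slide was read beside these values. In the FABP4 group, arrays 2 and 3 minus array 1 had a median of 0.06 over the 19 regions and of −0.03 over the 150 other names. With slide as a fixed term the median without FABP4 was 0.20, with 15 of 19 above 0 and 0 called, and 0.32 over the other names, with 141 of 150 above 0. On slide 2 alone the median with FABP4 was 0.24 over the regions, and 17 were above 0. For the share of C and T, the median of arrays 2 and 3 minus array 1 over regions was 0.06, 0.01, 0.14, 0.28 and 0.30 from the lowest to the highest share. The runs and shares were chosen after the values were seen and are given as a description. What links them to palmitic acid was not tested.

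**Figure D5:**
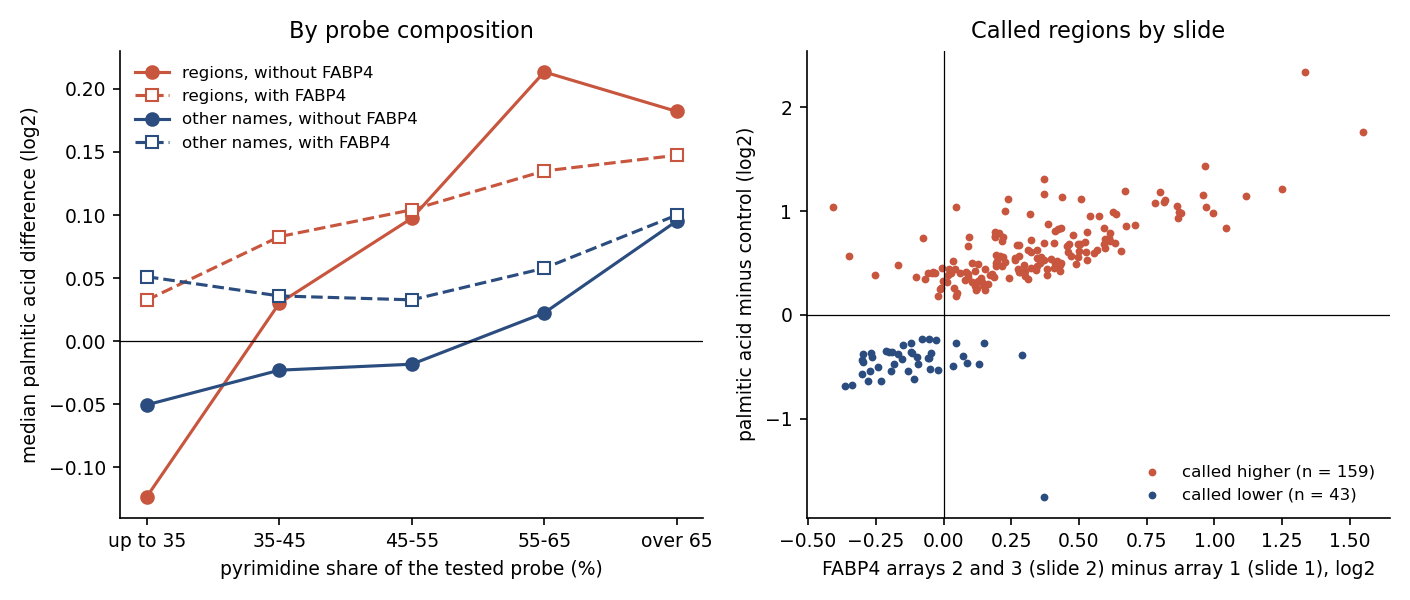
Left, median palmitic acid difference (log2, y axis) by the share of C and T in the tested probe (x axis, percent), for regions and other names, without FABP4 (filled) and with it (open). Right, palmitic acid minus control (log2, y axis) against FABP4 arrays 2 and 3 minus array 1 (log2, x axis) for the 159 regions called higher and 43 called lower, where most risers lie right and most fallers left of 0.

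A pair of regions called in both comparisons was read by near-identical probes. The nearest named probes of chr5:15176325-15223375_F and chr5:26374425-26393675_F belong to Speer4cos (listed as Speer7-ps1), which lies inside the first, and Speer4a, 11893 bases from the second, members of a gene family known from testis. Of their probes, 46 of the 50 aligned bases are the same. Capitals mark the identical bases.
chr5:15176325-15223375_F: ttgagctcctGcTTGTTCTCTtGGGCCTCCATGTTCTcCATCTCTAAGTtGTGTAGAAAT
chr5:26374425-26393675_F: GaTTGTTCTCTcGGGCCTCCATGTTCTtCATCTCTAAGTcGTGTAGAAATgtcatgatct

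The first read 5569, 6041 and 5814 on the control arrays and 6398, 6531 and 6845 with palmitic acid, and rose by 0.18 ± 0.05 and, with FABP4, by 0.22 ± 0.05 (adjusted p = 0.0473 and 0.0363). The second read 339, 338 and 344 against 421, 463 and 439 and rose by 0.37 ± 0.08 and 0.40 ± 0.08 (adjusted p = 0.0219 and 0.0271). Probes this alike may bind RNA from either locus, which was not tested. The locus behind each value is therefore uncertain, and the values cannot be taken as independent of each other. The calls of the first held in 1 and 4 of the 12 fits without 1 array, those of the second in 7 and 8.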

How the data were processed

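Per the file headers, the authors scanned 1-colour (Cy3) arrays and extracted spot intensity with Agilent Feature Extraction 10.7.3.1 and deposited the scanner files with a table of processed intensity on a linear scale. Their background-subtracted processed intensity was used. It was taken as log2 minus log2 of the 75th percentile of the array. Probes the software marked well above background on each array of some group were tested, 1 per name, the brightest. limma 3.58.1 in R 4.3.3 (lmFit, eBayes, 4 group means, 12 arrays) tested 17585 names in 5 comparisons, two-sided, with Benjamini-Hochberg adjustment over all of them and a threshold of 0.05. The fit was tested on simulated data. By rule, regions were drawn from all called ones of a comparison with at most 10, otherwise from the 8 largest rises and falls. The 6 brightest were drawn as well and, where none was called, the 3 smallest p. Not every region drawn is named in the text. Regions called in both palmitic acid comparisons, those over named long noncoding RNAs and the printed strand pairs were picked outside this rule, after their values were seen. Neighbours are the nearest named probes by the files' mm9 positions. Sequences are from the files; promoters and current symbols are from RefSeq (GRCm38). The members and lists were chosen with earlier results of these data known, and probe runs, composition, overlapping regions and matching probes after the values were seen. Regions on 1 chromosome are counted but not named. Alternatives were scaling, background correction, filters, probe averaging, slide and replicate blocks, and leaving out each array.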

Additional observations from a re-analysis of the deposited data

How the results depend on the processing

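Counts of called regions without FABP4 (202) kept within 1.5 times under quantile normalization, the 75th percentile over detected probes, normexp, the deposited value table, the filter on all 12 arrays, the mean of probes, the groups alone and the replicate block (193 to 281). They were 46 with no filter on dim probes, 6 with slide as a fixed block, 14 with slide as a random block and 646 without scaling the arrays, a setting added once the data had been seen, which moved the median of all names to 0.17. With FABP4 (40) they were 8 with no filter, 12 on slide 2 alone, 2 with the groups alone and 5 with no scaling. For FABP4 without palmitic acid (2) they were 1 with no filter, 15 with slide as a fixed block, and 0 with the percentile over detected probes, normexp, the filter on all 12 arrays, the mean of probes, slide as a random block, the replicate block, the groups alone and slide 1 alone. The interaction (0) gave 4 with slide as a fixed block and 2 with no scaling. FABP4 with palmitic acid gave 0 in all but the fits without 1 array. Without 1 array each the counts ran from 67 to 463, from 18 to 38, from 0 to 30, from 0 to 6 (FABP4 with palmitic acid) and from 0 to 3 (interaction), and regions detected from 2299 to 2342. The replicate numbers did not pair the arrays (correlations of −0.08 to 0.17 over 18 pairs of the same number), and the replicate block gave 200, 30, 0, 0 and 0. Slide 2 alone could not be run for the comparisons against controls. The difference of chr11:120097758-120098581_F was −0.0386 with slide as a fixed block. The cause was not tested for any of these. Low signal limits the precision: the detected regions had a median scaled intensity of 133, the undetected ones 11.4.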
